A study of Mus musculus with 48 samples.

Results

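The 30 genes described here make cholesterol, sense it, move it into and through the hepatocyte, store it or export it, and they are 30 of the 15041 genes in the expression table. They were chosen by gene symbol, from a list of 33 symbols that holds both older and newer names. Of the 3 symbols with no row, Msmo1 and Sc5dl are other names of Sc4mol and Sc5d, and Hmgcs1 was not analysed here. By role, 7 genes encode enzymes of the mevalonate steps, 11 encode enzymes of the sterol branch, 4 encode the sterol-sensing machinery, 4 serve uptake, transport and storage, and 4 are export and lipid-remodelling genes of the liver X receptor (LXR) group. All 30 passed the filter on low values (at least 0.5 FPKM in at least 3 libraries), as did 13765 genes in all.

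The liver makes cholesterol from acetyl-CoA through mevalonate, isoprenoid diphosphates, squalene and lanosterol. Transcription of these enzymes is driven by SREBP2, the product of Srebf2, which SCAP escorts from the endoplasmic reticulum to the Golgi for cleavage when sterols are scarce. INSIG1 and INSIG2 hold SCAP back when sterols are plentiful. Insig1 is itself a target of SREBP2, whereas the main Insig2 transcript of mouse liver is lowered by insulin. SR-BI, the product of Scarb1, takes up cholesterol from high-density lipoprotein, SOAT2 esterifies it for storage and secretion, and the ABCG5/ABCG8 pair pumps it into bile.

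The livers came from wild-type C57BL/6 mice and from mice labelled as SHP knockouts. SHP is a nuclear receptor without a DNA-binding domain, encoded by Nr0b2, that represses other receptors. Mice of either label took a liquid diet with 5% ethanol or its maltose control for 10 days. At 9am on day 11 the ethanol groups were gavaged with ethanol at 5 g/kg body weight, and the control groups with maltose dextrin at 9 g/kg. Livers were taken at 6pm, midnight, 6am and noon from 3 mice per group, which gave 16 groups and 48 libraries. Controls therefore carry the liquid diet, the gavage and the same clock times. All mice were gavaged at the same hour, so clock time and time since the gavage cannot be told apart. The hours from the gavage to each collection, and whether noon came before or after 6pm, are not given here. The sources used here do not give the allele, the age or the strain background of the knockout. The treatment of each library was read from its title, because a separate treatment tag follows the clock time and disagrees with the title in 24 of the 48 libraries.

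Read totals within genes ran from 9605636 to 19780144 per library. Values are FPKM (fragments per kilobase of transcript, scaled to the depth of the library) multiplied by a scale factor per library, called scaled FPKM below. Hepatocyte markers (Alb, Ttr, Apoa1 and Hnf4a) summed to between 38290 and 84690 scaled FPKM in every library, so the tissue label held. Nr0b2 was not depleted under the knockout label: it ranged from 3.69 to 29.99 (median 20.6) in the 12 knockout-label controls and from 6.56 to 39.6 (median 22.3) in the 12 wild-type controls. A total over the whole gene does not show whether an exon is missing, and the sources used here do not say which part was deleted. The genotype is therefore called the knockout label. In bulk liver, fewer cells of a type and less RNA per cell cannot be told apart. Of the 30 genes, 12 share exon bases with another annotated gene, such as Fdft1 with Ctsb and Abcg5 with Abcg8 on opposite strands. Fdps shares them with Gm43738, and Tm7sf2 with Vps51, on the same strand. The library kit keeps no strand, so in both cases reads from the shared bases cannot be told apart.

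In wild-type mice, the cholesterol synthesis genes were far lower in ethanol livers than in control livers at 6pm. Of 18 synthesis enzymes, 13 fell and none rose (limma, Benjamini-Hochberg adjusted p below 0.05 over 13765 genes), against 8.66% of all genes called lower at that time. The median log2 change of the 18 enzymes was -1.53, beside -0.01 for all genes tested. Counting livers in place of the test, all 3 ethanol livers lay below all 3 controls for 17 of the 18 enzymes, the exception being Ggps1, while 18.2% of all genes showed that order. Ggps1, geranylgeranyl diphosphate synthase, leads away from sterols to protein prenylation. Its level was 2.949, 3.497 and 2.804 in the ethanol livers and 2.70, 2.97 and 2.55 in the controls.

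**Figure D1:**
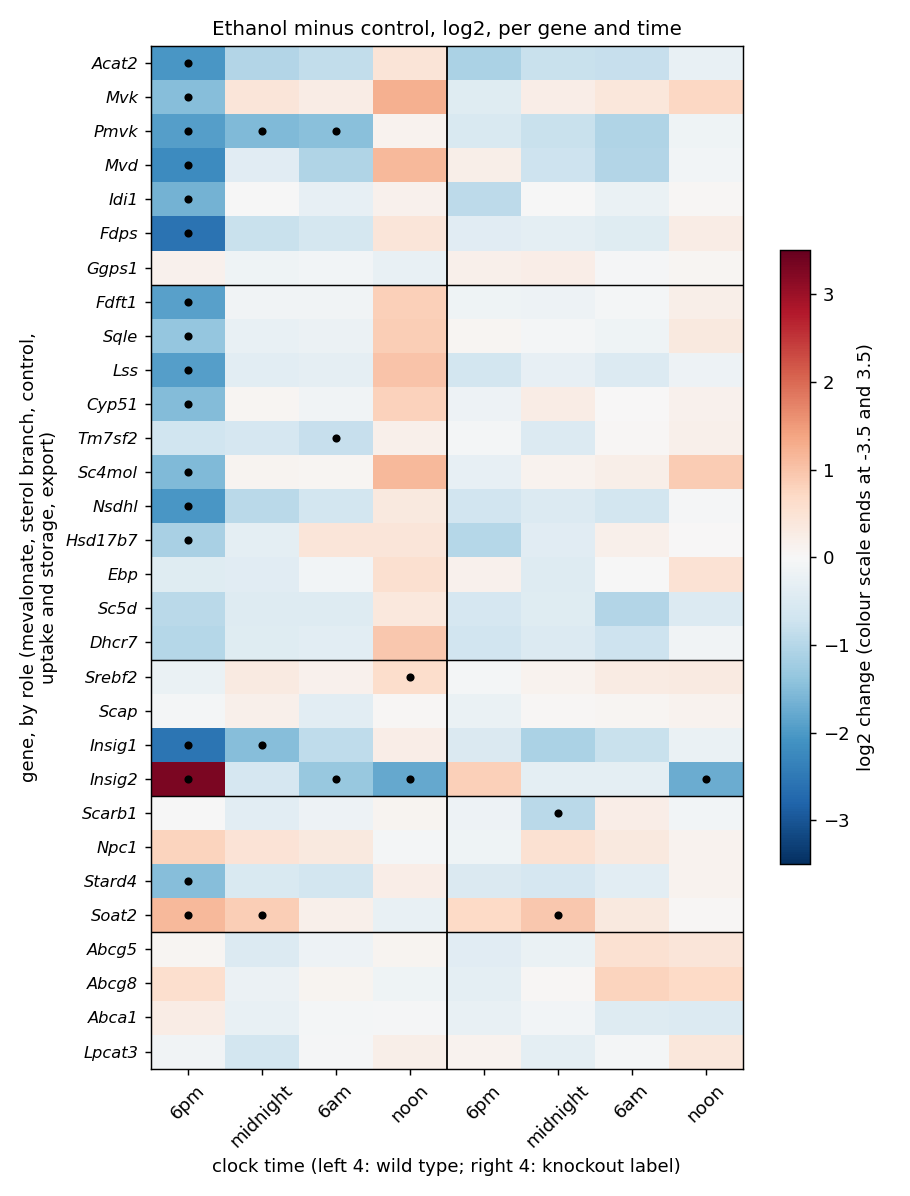
Log2 change, ethanol minus control, for the 30 genes (rows, grouped by role) at 4 clock times in wild type (left 4 columns) and under the knockout label (right 4 columns), with a black dot where the adjusted p was below 0.05. The column for wild type at 6pm holds 17 of the dots, and the blue of the enzyme rows there turns to pale red at noon.

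The largest enzyme change belonged to Fdps, which makes farnesyl diphosphate, the last intermediate shared by sterols and other isoprenoids. Fdps stood at 323, 186 and 146 scaled FPKM in the wild-type controls at 6pm and at 26.8, 32.2 and 45.6 in the ethanol livers. The groups did not overlap, and the log2 change was -2.58 (SE 0.47, adjusted p = 0.000253), a level 5.98-fold lower. Other mevalonate enzymes moved with it. Acat2, the cytosolic acetoacetyl-CoA thiolase that opens the pathway, was 42.4, 45.4 and 34.2 in controls and 8.67, 10.5 and 9.41 with ethanol (log2 change -2.03, SE 0.41, adjusted p = 0.000774). Pmvk, phosphomevalonate kinase, was 111, 95.6 and 45.2 in controls and 20.4, 17.7 and 22.4 with ethanol (-1.94, SE 0.42, adjusted p = 0.00153). Mvd (-2.19), Idi1 (-1.65) and Mvk (-1.48), the decarboxylase, the isomerase and the first kinase of the mevalonate steps, also fell on the log2 scale, so 6 of the 7 mevalonate genes passed the test.

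In the sterol branch 7 of 11 genes fell at 6pm. Fdft1, squalene synthase and the first committed sterol step, was 114, 72.3 and 59.8 in controls and 15.99, 23.1 and 24.9 in ethanol livers, a log2 change of -1.89 (SE 0.46, adjusted p = 0.00378). The C-4 demethylation enzyme Nsdhl (-2.03), lanosterol synthase Lss (-1.92), the methylsterol oxidase Sc4mol (-1.55), lanosterol demethylase Cyp51 (-1.51) and the ketosteroid reductase Hsd17b7 (-1.15) fell as well. Sqle, squalene epoxidase and a rate-limiting step of the branch, was 74.5, 38.2 and 34.4 in controls and 12.6, 17.9 and 24.6 with ethanol. Its groups did not overlap, but its call was close to the threshold (log2 change -1.35, SE 0.49, adjusted p = 0.0471) and was lost in 28 of the 48 fits that left out 1 library. It was also lost with library totals as the only scaling, with no filter on low values, with the replicate number as a block and with wild-type libraries alone. The sterol reductase Tm7sf2 (-0.69, adjusted p = 0.0576), the desaturase Sc5d (-0.95, adjusted p = 0.108), the terminal reductase Dhcr7 (-0.98, adjusted p = 0.119) and the isomerase Ebp (-0.42, adjusted p = 0.131) had negative estimates that did not pass.

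A single liver carried weight in the 6pm count. The wild-type control at 6pm numbered 0 had the highest level of 15 of the 18 enzymes among its 3 group mates and an acute phase sum of 83250 scaled FPKM, the highest of the 12 wild-type controls, whose median was 10790. Without it, 5 enzymes were called at 6pm in place of 13, and without the ethanol liver numbered 0 at that time 6 were. Acat2, Fdps, Pmvk, Nsdhl and Fdft1 kept their calls in all 48 fits that left out 1 library, and the change of Fdps then lay between -2.83 and -2.26. Kupffer cell markers also differed at 6pm: the summed level of 5 of the 6 listed markers (Adgre1 had no row) ran from 96.1 to 261 in controls and from 38.1 to 75.3 in ethanol livers, while hepatocyte markers summed to 52770 to 63750 and 59500 to 61310. The part of either in the enzyme result was not tested.

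Fewer enzymes were called at midnight and 6am. Of the 18 enzyme estimates at midnight, 15 were below 0 (median log2 change -0.38). All 3 ethanol livers lay below all 3 controls for 7 of 18 enzymes at midnight, beside 19.1% of all genes, and above them for 1. At midnight Pmvk was the only enzyme called lower (log2 change -1.56, SE 0.42, adjusted p = 0.0165), beside 4.21% of all genes called lower and 9.65% called either way. It stood at 64.2, 87.2 and 103 in controls and at 30.2, 31.9 and 22.6 in ethanol livers, with no overlap, although 3 of the 48 leave-out fits lost the call. At 6am, Pmvk (-1.47, adjusted p = 0.0194) and Tm7sf2 (-0.81, adjusted p = 0.0345) were lower, beside 4.66% of all genes. Tm7sf2 was 44.9, 53.4 and 46.8 in the 6am controls and 31.4, 19.0 and 34.0 in the ethanol livers, again with no overlap. Both 6am calls were lost without the ethanol liver numbered 1, when the change was -0.71 for Pmvk and -0.55 for Tm7sf2. The Pmvk call was also lost without either of 2 controls, and the Tm7sf2 call without any 1 of the 3 controls.

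At noon the enzymes lay on the other side of the controls. The estimate was above 0 for 17 of 18 enzymes (median log2 change 0.50, beside 0 for all genes), and for 13 of 18 all 3 ethanol livers were above all 3 controls, an order that 18.1% of all genes showed. None of the 18 passed limma's test at noon, where 7.45% of all genes were called and 4.41% were called higher; 5 enzymes had an unadjusted p below 0.05 (Ebp, Mvk, Sc4mol and Dhcr7 higher, Ggps1 lower), and limma's voom fit on recovered reads called none of the 18. Fdft1 was 97.4, 94.7 and 123 in noon ethanol livers and 57.9, 61.9 and 56.7 in controls, a log2 change of 0.82 (adjusted p = 0.296). Ebp came nearest, at 124, 116 and 152 against 79.5, 93.6 and 91.2 (0.56, adjusted p = 0.0725), and it was called in the fit of wild-type libraries alone (adjusted p = 0.0111) and without the 2 knockout-label livers highest in acute phase genes (adjusted p = 0.0467).

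Read over the day, the enzymes varied among the 4 sampling times in wild-type ethanol livers. These differ both in clock time and in time since the gavage. In that arm 16 of 18 enzymes differed among the 4 times (limma, 3 contrasts tested jointly), against 20.3% of all genes, the exceptions being Sqle (adjusted p = 0.0656) and Ggps1 (adjusted p = 0.0666). The group mean was lowest at 6pm and highest at noon for 17 of 18, again all but Ggps1, and the ratio of the highest to the lowest time had a median of 4.23 and reached 7.92 for Mvd. In knockout-label ethanol livers the mean was lowest at 6pm for 12 of 18 and highest at noon for 15, with a median ratio of 1.70, and 2 of 18 passed, where 38.1% of all genes did. In wild-type controls none of the 18 enzymes passed limma's test of time, none had an unadjusted p below 0.05 and the voom fit called 0, where 8.34% of all genes passed, and the ratio ran from 1.08 (Acat2) to 1.66 (Mvd). Without the wild-type ethanol liver numbered 0 at 6pm, or the one numbered 2 at noon, 12 of 18 enzymes differed among times in the ethanol arm, and over the 48 fits that left out 1 library the count for all 30 genes ran from 16 to 25, with 21 in the full fit.

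The ethanol effect itself depended on time in wild type for 9 of the 30 genes, against 10.6% of all genes. They were Insig2 (adjusted p = 1.95e-06), Fdps (0.0179), Fdft1 (0.0272), Insig1 (0.0275), Soat2 (0.0279), Acat2 (0.0285), Mvk (0.03), Hsd17b7 (0.0361) and Ebp (0.0376). Hsd17b7 was 13.5, 16.2 and 12.1 in ethanol livers at 6pm, below its 3 controls of 41.7, 32.3 and 22.7. In noon ethanol livers it was 36.8, 34.5 and 49.9, above its noon controls of 30.2, 30.5 and 27.8. The count was unstable: it was 19 without the ethanol liver numbered 1 at 6am, 2 without the 6pm control numbered 0, and 3 with library totals as the only scaling.

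**Figure D2:**
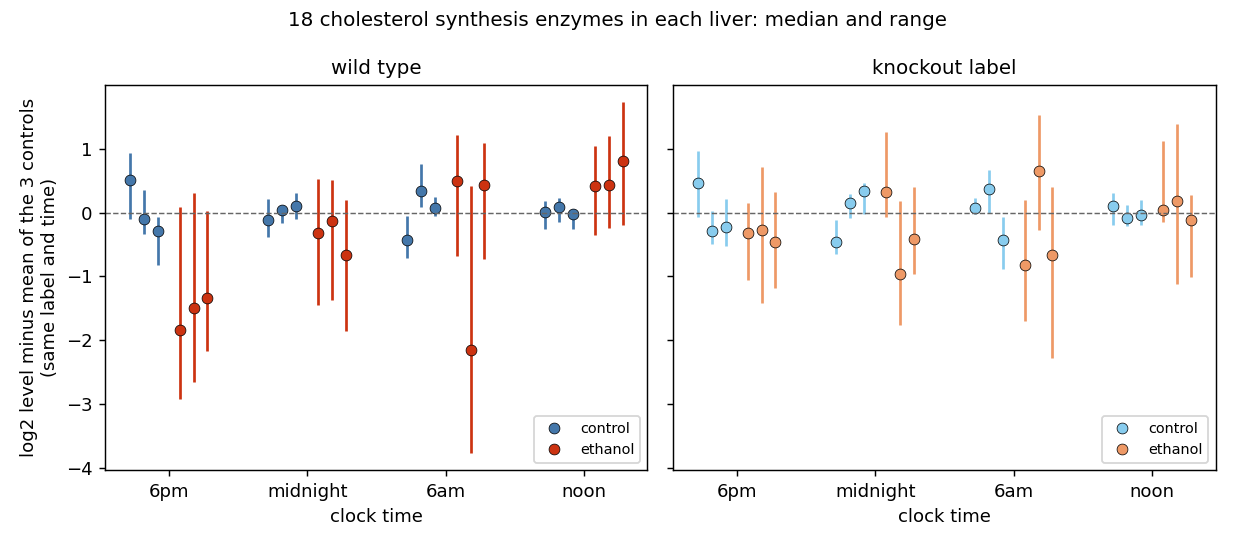
Median (points) and range (lines) over the 18 enzymes of the log2 level in each liver minus the mean of the 3 controls of the same label and time, for wild type (left) and the knockout label (right). The 3 wild-type ethanol livers at 6pm have medians of -1.84, -1.50 and -1.34, and 1 ethanol liver at 6am lies at -2.15, apart from its 2 group mates.

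How far the enzymes moved together from liver to liver within a group varied. In 2 of the 16 groups the same liver was highest for 17 or more enzymes and another was lowest for all 18, namely the 6am controls of each label, where the highest liver held the top value for 34.7% and 28.2% of all genes tested. In knockout-label ethanol livers at 6pm, by contrast, the liver numbered 1 was highest for 8 enzymes and lowest for 9. The widest gap was in wild-type ethanol livers at 6am. There the liver numbered 1 had an enzyme median of -2.15 on the log2 scale relative to its controls, while the other 2 had 0.50 and 0.43. Fdps was 24.2 in that liver and 209 and 222 in its mates, and Insig2, which runs opposite, was 128 against 21.1 and 34.7. This liver also had the highest mitochondrial share of reads of all 48, 7.0%. Its clock genes stood apart as well, with Dbp at 2.48 against 13.0 and 7.34 in its mates. Nr1d1 was 17.2 against 28.2 and 27.1, and Arntl 8.77 against 3.59 and 6.04. Per2 and Per3 were lowest in it too. The part of this in its enzyme levels was not tested. Under the knockout label, the ethanol livers numbered 0 at midnight and 1 at 6am stood high, with enzyme medians of 0.32 and 0.65, while their mates lay between -0.96 and -0.41.

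Averaged over the 4 times, ethanol lowered 5 of 18 enzymes in wild type, against 13.7% of all genes called lower and 30.3% called either way. Pmvk ranged from 45.2 to 111 (median 81.6) in 12 controls and from 10.3 to 107 (median 31.1) in 12 ethanol livers, a log2 change of -1.21 (SE 0.21, adjusted p = 3.97e-05). Acat2 ranged from 28.7 to 58.5 (median 43.6) and from 7.57 to 75.2 (median 20.7), a change of -0.87 (adjusted p = 0.00154). Fdps went from 108 to 323 (median 185) to 24.2 to 261 (median 114), a change of -0.89 (adjusted p = 0.00409). In all 3 the lowest ethanol liver was the one numbered 1 at 6am and the highest was a noon liver. The ethanol range of Acat2 covered that of the controls, while the highest Pmvk and Fdps values were those of control livers. Tm7sf2 (-0.48, adjusted p = 0.00454) and Nsdhl (-0.81, adjusted p = 0.00733) were the other enzymes called. Without the ethanol liver numbered 1 at 6am the change of Nsdhl was -0.54 and still passed (adjusted p = 0.00582). Tm7sf2 ranged from 33.0 to 55.9 (median 45.9) in controls and from 19.0 to 72.9 (median 29.9) with ethanol.

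Under the knockout label 3 of 18 enzymes were lower with ethanol over the 4 times, against 14.8% of all genes called lower and 31.6% called either way. This count lay near the share of all genes called lower, so the values below describe single genes. Acat2 ranged from 26.7 to 59.5 (median 37.8) in controls and from 13.1 to 45.7 (median 22.9) with ethanol (log2 change -0.74, SE 0.21, adjusted p = 0.00592). Sc5d, which sets a late double bond of the sterol ring, ranged from 174 to 371 (median 289) and from 87.1 to 362 (median 173), a change of -0.63 (adjusted p = 0.0188). Pmvk changed by -0.63 (adjusted p = 0.0218), from a median of 61.5 to 44.2. The Sc5d call was lost without the 2 knockout-label ethanol livers that held the highest acute phase sums, 139700 and 124000 scaled FPKM (change -0.46, adjusted p = 0.0962). With library totals as the only scaling, which moves the median of all genes by -0.20 in this comparison, 12 of the 30 genes were called in place of 6. Acute phase genes summed to 10740 to 139700 (median 23130) in knockout-label ethanol livers and to 8472 to 22400 (median 9534) in their controls, and the part of this in the results of the label was not tested.

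At none of the 4 single times was an enzyme called by limma under the knockout label, where 7.08% of all genes were called at 6pm, 9.24% at midnight, 8.30% at 6am and 22.4% at noon. The enzymes with an unadjusted p below 0.05 numbered 2, 1, 2 and 1 at those times, and at 6pm the voom fit called 1. Without the high midnight ethanol liver numbered 0, 9 of the 30 genes were called at midnight in place of 2, and 10 over the 4 times in place of 6. At 6pm 6 of 18 lay below all their controls, beside 9.15% of all genes, and the median change was -0.41.

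The difference in the ethanol effect between labels was tested directly. Over the 4 times none of the 30 genes passed limma's test, against 8.01% of all genes; 2 had an unadjusted p below 0.05 (Ggps1 and Tm7sf2) and the voom fit also called none. At 6pm, where 2.99% of all genes passed, the estimate was above 0 for all 18 enzymes (median 1.16). The ethanol change was thus less negative or more positive under the knockout label, where Mvd, Ggps1, Ebp and Sqle had estimates above 0. No enzyme was called by limma or voom for this difference, and 7 had an unadjusted p below 0.05. Fdps came nearest, with a difference of 2.18 on the log2 scale (SE 0.67, adjusted p = 0.0624): its knockout-label levels at 6pm were 216, 157 and 197 in controls and 144, 172 and 116 with ethanol. Without the wild-type ethanol liver numbered 1 at 6am, which sits in neither group of this comparison and acts through the shared estimate of spread, 3 enzymes were called, Fdps among them (adjusted p = 0.00619). At midnight, 6am and noon limma called the difference for none of the 30 genes, with 1, 1 and 0 genes at an unadjusted p below 0.05 and 0 by voom, beside 0.247%, 0.0509% and 1.72% of all genes.

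The INSIG genes moved in opposite directions at 6pm. Insig2 had 374.7, 242 and 124 scaled FPKM in wild-type ethanol livers and 24.3, 28.4 and 15.8 in controls. The groups did not overlap, and the log2 change was 3.31 (SE 0.43, adjusted p = 1.73e-06), a 9.89-fold rise, where 9.74% of all genes were called higher. Insig1 stood at 25.7, 27.0 and 40.3 in the same ethanol livers and at 232, 238 and 110 in controls, a change of -2.57 (SE 0.47, adjusted p = 0.00027). Both calls held in all 48 fits that left out 1 library.

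**Figure D3:**
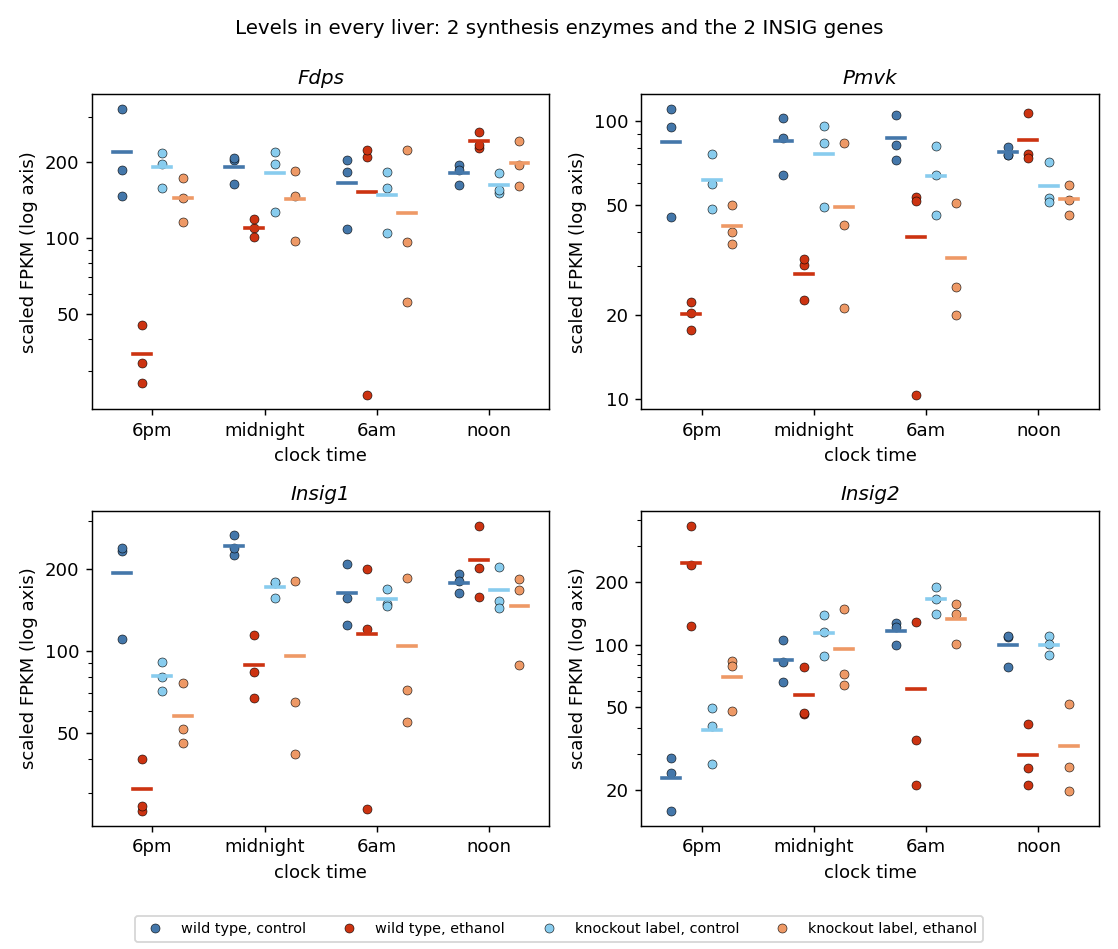
Scaled FPKM (log axis) of Fdps, Pmvk, Insig1 and Insig2 in each of the 48 livers by clock time, with points for livers, coloured by label and treatment, and short lines for group means. At 6pm the 3 wild-type ethanol livers are the lowest for Fdps, Pmvk and Insig1 and the highest for Insig2.

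Insig2 had the smallest adjusted p of the 30 genes for time of day in 3 of the 4 arms, and Scarb1 had it in knockout-label ethanol livers. In wild-type controls its group means were 22.8 at 6pm, 84.7 at midnight, 116 at 6am and 99.4 at noon (adjusted p = 0.00091 over the 4 times), and in knockout-label controls 39.1, 114, 166 and 100.3 (adjusted p = 0.00548; 12.7% of all genes passed there). In wild-type ethanol livers the highest time was 6pm, with 247 at 6pm, 57.3 at midnight, 61.3 at 6am and 29.4 at noon (adjusted p = 7.51e-05). The ethanol change was then negative at 6am (-1.33, SE 0.43, adjusted p = 0.0379) and noon (-1.78, SE 0.43, adjusted p = 0.00867), where 3.04% of all genes were called lower at noon. At noon the ethanol livers held 21.2, 25.5 and 41.6 and the controls 78.4, 109 and 111, with no overlap. At 6am the ethanol livers held 21.1, 128 and 34.7 against 128, 121 and 99.8, so 1 ethanol liver reached the controls. The 6am call was lost in 5 leave-out fits, over which the change ran from -2.08 to -0.79. Averaging the rise at 6pm with the falls at 6am and noon, the mean over the 4 times was close to 0 in wild type (-0.10, adjusted p = 0.778).

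Under the knockout label Insig2 rose less at 6pm. Its levels there were 47.8, 83.4 and 79.3 with ethanol and 26.6, 40.7 and 49.9 in controls, which overlap (log2 change 0.84, adjusted p = 0.235). The difference between labels was -2.47 (SE 0.61, adjusted p = 0.0213), the only called difference among the 30 genes at any time. Leaving out any 1 of 3 livers ended the call: the wild-type ethanol liver numbered 0, the wild-type control numbered 2 and the knockout-label control numbered 1, all at 6pm, and over all such fits it lay between -2.89 and -2.10. At noon it was 26.0, 19.7 and 51.8 against 111, 101 and 89.1 in controls, a log2 change of -1.73 (SE 0.43, adjusted p = 0.00424; 9.68% of all genes were called lower) beside -1.78 in wild type. The course over time under the knockout label was called in ethanol livers (adjusted p = 0.002), as was the time dependence of its ethanol effect (adjusted p = 0.0294; 11.0% of all genes).

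Insig1 fell in both labels. Its mean over the 4 times fell in wild type by 1.18 on the log2 scale (SE 0.24, adjusted p = 0.000242), from a range of 110 to 266 (median 200) in controls to 25.7 to 289 (median 99.1) with ethanol. At midnight it was 83.9, 114 and 67.2 against 225, 266 and 238 (-1.48, adjusted p = 0.0411), a call that ended when any 1 of those 6 livers was left out. Under the knockout label it fell by 0.66 (adjusted p = 0.0318), from 71.4 to 204 (median 151) to 41.8 to 186 (median 74.0), a call that 7 of the 48 leave-out fits lost. Among 6pm controls Insig1 was 91.2, 71.4 and 80.2 under the knockout label and 232, 238 and 110 in wild type. Labels were not compared by a test in 6pm controls alone. Over the 4 times the label difference of Insig1 in controls did not pass (limma, -0.46, adjusted p = 0.134).

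Srebf2, the gene of the transcription factor itself, was not called at 6pm in wild type, where ethanol minus control was -0.22 (adjusted p = 0.447). Its levels there were 10.7, 11.7 and 11.4 with ethanol and 17.3, 12.0 and 11.1 in controls. At noon it rose, with 17.3, 18.1 and 21.1 in ethanol livers and 12.6, 11.7 and 12.3 in controls (0.60, SE 0.19, adjusted p = 0.0442), although leaving out any 1 of those 6 livers ended the call. Scap, the escort protein, was not called for ethanol in either label. It differed over the 4 times in wild-type controls (adjusted p = 0.0367), at 19.7, 30.4 and 19.1 at 6pm, 16.2, 22.4 and 22.7 at midnight, 29.9, 35.0 and 33.4 at 6am and 33.6, 31.8 and 35.6 at noon. Each 6am and noon liver was above each midnight and 6pm liver, except that the highest 6pm liver passed the lowest 6am liver.

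Promoter sequence was read for all genes of the set that had a window. RefSeq promoter windows (GRCm38.p6) were matched for 23 of the 30 genes. Fdps, Sqle, Fdft1, Stard4, Soat2, Scarb1 and Npc1 were not matched. Each window here is the 250 bases before an annotated start, and 3 motifs were searched on both strands: the CCAAT box (CCAAT or ATTGG), bound by NF-Y, a known partner of SREBP2; the letters CACNCCAC (or GTGGNGTG), found in many sterol regulatory elements; and the E-box CACGTG. The first 2 are printed in capitals in these windows, shown because Mvk is an enzyme dense in CCAAT letters and the INSIG pair moved in opposite directions.
Mvk, chr5:114444019-114444268, plus strand: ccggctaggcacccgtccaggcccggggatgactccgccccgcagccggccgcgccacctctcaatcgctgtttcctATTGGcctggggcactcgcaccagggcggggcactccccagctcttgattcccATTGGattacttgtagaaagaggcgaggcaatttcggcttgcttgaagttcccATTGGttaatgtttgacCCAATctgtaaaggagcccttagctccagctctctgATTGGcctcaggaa
Insig1, chr5:28071162-28071411, plus strand: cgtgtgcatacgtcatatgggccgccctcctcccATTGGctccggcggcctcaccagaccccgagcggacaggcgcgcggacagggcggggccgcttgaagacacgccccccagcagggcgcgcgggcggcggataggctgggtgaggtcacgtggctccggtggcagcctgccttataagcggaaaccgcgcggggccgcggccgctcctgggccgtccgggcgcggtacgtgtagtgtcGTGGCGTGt
Insig2, chr1:121332590-121332839, minus strand: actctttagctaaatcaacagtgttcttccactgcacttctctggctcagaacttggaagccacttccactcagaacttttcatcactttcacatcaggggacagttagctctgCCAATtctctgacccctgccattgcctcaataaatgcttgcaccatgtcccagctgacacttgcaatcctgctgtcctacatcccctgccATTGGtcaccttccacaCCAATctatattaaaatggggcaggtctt

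CCAAT letters stood in 14 of the 15 enzymes with a window, and in 14 of their 18 windows, beside 33.8% of all 32851 promoter windows. The Mvk window holds them on both strands. CACNCCAC was in 2 of the 30 windows of the 23 genes, those of Acat2 and Insig1, beside 5.29% of all windows. In the Insig1 window it stands on the opposite strand at the end nearest the start. CACGTG was in 6 of these 30 windows, 1 for each of 6 genes, beside 6.02% of all windows. The Insig2 window shown holds CCAAT letters and no CACNCCAC, and its 2 other annotated starts hold no CCAAT letters. A match describes letters, not a bound site, and a window without a match says only that these letters are not in it.

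Of the uptake, transport and storage genes, Soat2 was the one that rose with ethanol. In wild type at 6pm it was 42.2, 43.8 and 44.9 in ethanol livers and 20.5, 21.6 and 17.3 in controls, a log2 change of 1.13 (SE 0.26, adjusted p = 0.00235) when most enzymes fell. At midnight it was 24.9, 23.0 and 19.7 against 10.7, 12.2 and 13.6 (0.86, adjusted p = 0.0298; 5.44% of all genes were called higher), a call lost in 5 leave-out fits, and at 6am and noon it was not called. Over the 4 times Soat2 rose in wild type (0.47, SE 0.13, adjusted p = 0.00534) and under the knockout label (0.51, SE 0.13, adjusted p = 0.00266), beside 16.6% and 16.8% of all genes called higher. Its range moved from 10.7 to 26.1 (median 20.5) to 17.8 to 44.9 (median 22.3) in wild type. Under the knockout label it moved from 13.8 to 29.96 (median 18.9) to 13.4 to 63.4 (median 29.8), and at midnight from 13.8, 18.7 and 14.4 to 13.4, 32.6 and 63.4 (0.95, adjusted p = 0.0181; 3.94% of all genes were called higher). In that last group 1 ethanol liver was below all its controls, and the call was lost in 4 leave-out fits. With library totals as the only scaling, the mean change under the knockout label was 0.26 and did not pass.

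Stard4, a soluble sterol carrier and SREBP2 target, moved with the enzymes. At 6pm in wild type it was 12.2, 14.2 and 15.99 in ethanol livers and 40.4, 44.4 and 37.4 in controls, with no overlap (-1.50, SE 0.33, adjusted p = 0.00175). Over the 4 times it fell in wild type by 0.62 (SE 0.17, adjusted p = 0.0048), from 30.4 to 44.4 (median 38.1) to 10.2 to 56.1 (median 26.7). Npc1, which carries cholesterol out of lysosomes, lay above its controls at 6pm in all 3 wild-type ethanol livers, at 23.7, 20.9 and 23.4 against 9.496, 16.4 and 13.8, but did not pass the test (0.79, adjusted p = 0.0643).

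Scarb1 was the gene of the 30 that separated the genotype labels most. In the 12 knockout-label controls it ranged from 33.4 to 69.9 (median 57.3) and in the 12 wild-type controls from 14.0 to 28.8 (median 22.9). Each knockout-label control was above each wild-type control, an order that 0.472% of all genes showed. The log2 difference was 1.27 (SE 0.10, adjusted p = 1.28e-11), 2.40-fold, where 32.4% of all genes differed between labels in controls. In ethanol livers the difference was 1.14 (SE 0.10, adjusted p = 1.97e-10), but the ranges met, at 21.7 to 68.2 (median 52.6) and 13.9 to 29.0 (median 20.2); 28.3% of all genes differed there. Kupffer cell markers moved the same way: 5 of 5 measured markers were called higher in knockout-label controls, with sums of 164 to 579 against 71.8 to 261. Their part in the Scarb1 difference was not tested.

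Within the knockout label, Scarb1 fell with ethanol at midnight. It was 36.3, 21.7 and 30.5 in ethanol livers and 57.8, 54.3 and 56.9 in controls, with no overlap (log2 change -0.95, SE 0.21, adjusted p = 0.00441; 5.30% of all genes were called lower), a call lost in the fit of knockout-label libraries alone (adjusted p = 0.0537). At the other 3 times its change was not called. Scarb1 thus varied over the day in knockout-label ethanol livers (adjusted p = 0.00027), where 38.1% of all genes did, and the time dependence of its ethanol effect was called (adjusted p = 0.0283). In wild type at midnight it was 18.6, 17.1 and 18.3 with ethanol and 28.8, 21.9 and 20.1 in controls, which also did not overlap, an order that 19.1% of all genes showed, but the change did not pass (-0.36, adjusted p = 0.285).

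**Figure D4:**
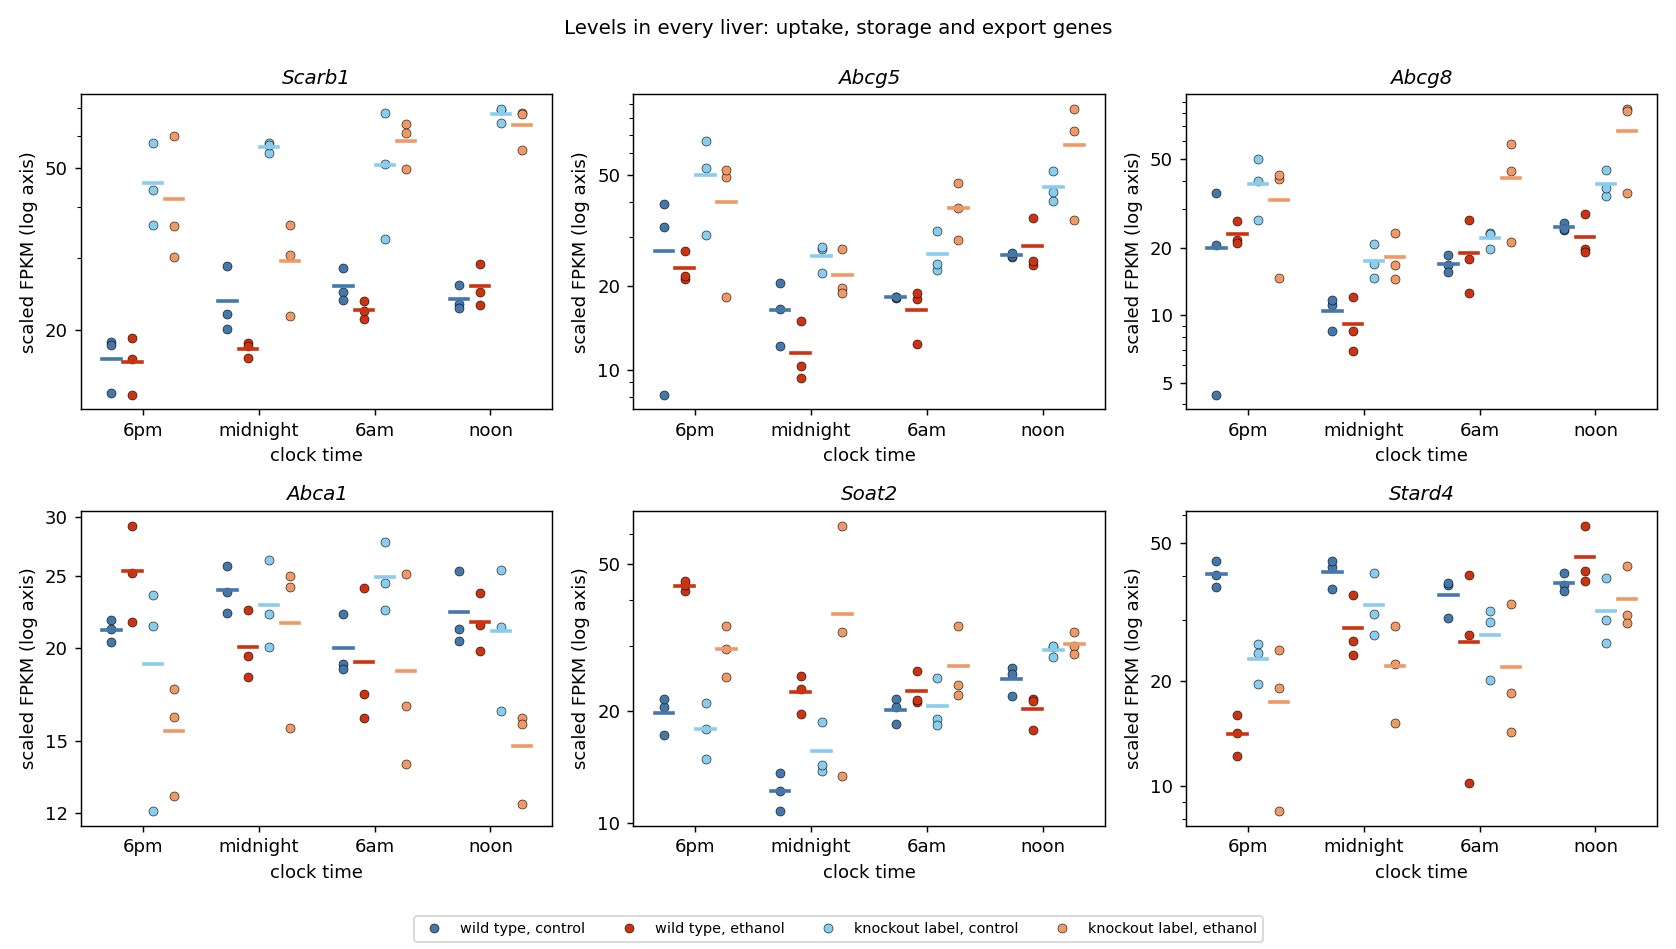
Scaled FPKM (log axes) of Scarb1, Abcg5, Abcg8, Abca1, Soat2 and Stard4 in each of the 48 livers by clock time, with points for livers and short lines for group means. At each time the knockout-label points of Scarb1 lie above the wild-type points of the same treatment, and 1 wild-type control at 6pm is the lowest point of Abcg5 and Abcg8.

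The sterol exporters Abcg5 and Abcg8 were higher under the knockout label. In controls Abcg5 ranged from 22.2 to 66.3 (median 31.0) under the knockout label and from 8.12 to 39.4 (median 19.4) in wild type, a log2 difference of 0.76 (SE 0.19, adjusted p = 0.00251). Abcg8 ranged from 14.7 to 50.0 (median 24.99) and from 4.41 to 35.2 (median 17.8), a difference of 0.75 (SE 0.22, adjusted p = 0.00845). All 3 knockout-label controls were above all 3 wild-type controls for both genes at midnight, 6am and noon, an order that 12.2%, 15.2% and 20.7% of all genes showed, and the ranges met at 6pm. In ethanol livers the difference was 0.96 for Abcg5 (SE 0.19, adjusted p = 0.000304; medians 36.3 and 20.01) and 0.96 for Abcg8 (SE 0.22, adjusted p = 0.00144; medians 38.0 and 19.5). These 4 calls held in all 48 leave-out fits and in every other setting tried. The lowest wild-type control of both genes, 8.12 and 4.41, was the 6pm liver numbered 0 with the high acute phase sum; without it the Abcg8 difference in controls was 0.55.

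Both exporters also varied over the day in knockout-label ethanol livers (adjusted p = 0.0215 for Abcg5 and 0.0122 for Abcg8). Abcg8 was 40.9, 14.7 and 42.4 at 6pm, 23.3, 16.8 and 14.5 at midnight, 21.3, 44.1 and 58.5 at 6am and 84.0, 35.1 and 81.9 at noon. The low values at 6pm and noon, 14.7 and 35.1, belong to the 2 livers with the highest acute phase sums. Neither exporter was called for ethanol in either label over the 4 times (limma, adjusted p from 0.327 to 0.81). The largest estimate was that of Abcg8 under the knockout label, 0.29 on the log2 scale (SE 0.22). The first listed RefSeq starts of the pair are 110 bases apart on opposite strands. The window before that Abcg8 start, shown because it spans the start of Abcg5, holds CCAAT letters (in capitals) at 2 places, and the Abcg5 window holds none.
Abcg8, chr17:84682871-84683120, plus strand: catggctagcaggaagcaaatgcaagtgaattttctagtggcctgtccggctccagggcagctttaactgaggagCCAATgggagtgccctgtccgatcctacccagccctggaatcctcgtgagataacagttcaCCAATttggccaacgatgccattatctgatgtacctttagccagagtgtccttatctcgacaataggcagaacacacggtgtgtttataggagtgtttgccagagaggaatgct

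Abca1, which loads cholesterol onto apolipoprotein A-I, was lower with ethanol under the knockout label (log2 change -0.32, SE 0.10, adjusted p = 0.0153), from 12.0 to 27.8 (median 22.3) in controls to 12.3 to 25.1 (median 16.1). That call was lost in the fit of knockout-label libraries alone. In wild type it ranged from 18.7 to 25.8 (median 21.5) and from 16.1 to 29.2 (median 21.6), a change of -0.03 (adjusted p = 0.863). Among ethanol livers Abca1 was lower under the knockout label than in wild type, by -0.31 on the log2 scale (adjusted p = 0.023), and leaving out any 1 of 3 livers ended this call. The difference between labels in its ethanol effect did not pass (-0.29, SE 0.14, adjusted p = 0.221). Lpcat3, an LXR target that remodels membrane phospholipids, was called in neither ethanol comparison nor between labels.

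Between labels, a few genes of synthesis and sterol transport also differed. Of 18 enzymes, 2 were called in controls and 2 in ethanol livers, each a smaller share than that of all genes, given above with Scarb1. In controls Ggps1 (-0.23, SE 0.06, adjusted p = 0.00425), Ebp (-0.27, SE 0.10, adjusted p = 0.0309) and Stard4 (-0.46, SE 0.17, adjusted p = 0.0332) were lower under the knockout label. Ggps1 ranged from 1.80 to 3.10 (median 2.31) against 2.33 to 3.38 (median 2.90) in wild type, and Ebp from 60.3 to 102 (median 73.1) against 79.5 to 106 (median 91.6). The Ggps1, Ebp and Stard4 calls were lost with library totals as the only scaling, which moves the median of all genes by 0.11 in this comparison. Of the 48 fits that left out 1 library, 8 lost the Stard4 call and 6 the Ebp call. In ethanol livers Tm7sf2 was higher (0.39, SE 0.13, adjusted p = 0.0222) and Sc5d lower (-0.55, SE 0.21, adjusted p = 0.0428). Sc5d then ranged from 87.1 to 362 (median 173) against 88.1 to 677 (median 233), and neither of these 2 calls held without the 2 knockout-label livers highest in acute phase genes. The Sc5d call was also lost in 12 of 48 leave-out fits, and the Tm7sf2 call in 3.

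Targets of SREBP outside the pathway were counted beside it. Of 10 such genes, mostly for fatty acid synthesis and acetyl-CoA supply, 8 fell with ethanol over the 4 times in wild type and 8 under the knockout label. The shares of all genes called lower were 13.7% and 14.8%. Acly, ATP citrate lyase and the source of cytosolic acetyl-CoA, changed by -1.84 and -1.56, the acetate-activating Acss2 by -1.45 and -1.33, the desaturase Fads2 by -1.01 and -1.41, and Srebf1, the gene of SREBP1, by -1.49 and -1.09. The median over these 10 genes was -1.38 in wild type and -0.98 under the knockout label, beside medians near 0 for all genes tested. At 6pm in wild type 8 of the 10 were called lower (median -1.73), beside 8.66% of all genes. Under the knockout label 1 was called lower at that time (median -0.93), with all 10 estimates below 0. Of 11 genes that use isoprenoids for prenylation, ubiquinone or dolichol, 3 rose and 1 fell in each label, where 30.3% and 31.6% of all genes were called, so this list lay near the share of all genes. Nus1, a dolichol pathway subunit, rose by 0.33 and 0.25.

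Of 19 other sterol-handling genes, 4 rose and 4 fell with ethanol in wild type, and 3 rose and 4 fell under the knockout label, beside the same 30.3% and 31.6% of all genes. Lipa, the lysosomal acid lipase that frees cholesterol from esters, fell by 0.33 and 0.46 on the log2 scale, and Lcat, which esterifies cholesterol on plasma lipoproteins, rose by 0.22 and 0.59. Soat1, the acyltransferase of macrophages and other cells, fell by 0.29 and 0.51. Of 5 Kupffer cell markers, 4 had estimates below 0 in each label (median log2 change -0.71 and -0.50). In wild type 3 were called lower and 1 higher (log2 change 1.315), and under the knockout label 2 lower and 1 higher (1.487). The part of these markers in the fall of Soat1 was not tested. Between labels in ethanol livers 8 of the 19 were higher and 2 lower under the knockout label, beside 28.3% of all genes, with the lipoprotein receptor Lrp1 higher by 0.59 and Erlin1, an endoplasmic reticulum protein that restrains SREBP activation, lower by 0.51 on the log2 scale.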

How the data were processed

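Liver RNA was captured by poly(A) selection with an unstranded TruSeq kit and read in single reads, per the labels' protocols. Novoalign and GRCm38 are named in the submitters' processing notes, with no version of Novoalign. The authors deposited FPKM for 15041 genes in 48 libraries, and per the file header these are not counts. Whole reads were recovered from the steps of low values for all 15041 genes (relative tolerance 1e-08), giving 9605636 to 19780144 reads per library. Scale multipliers (0.807 to 1.30) came from these reads as a trimmed mean of M-values (trims of 30% and 5%).

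Genes reaching 0.5 FPKM in 3 or more libraries (13765) were fitted with limma 3.58.1 (R 4.3.3, trend) on log2(scaled FPKM + 0.5), with 16 group means. This pseudocount understates changes of low genes. Adjusted p-values are Benjamini-Hochberg over all genes tested, two-sided, with a threshold of 0.05. Each of 3 libraries per group comes from 1 mouse.

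The genes and lists were chosen with earlier results of these data known. Full values are given for the 6 members with the smallest adjusted p in each contrast over the 4 times, the 4 in each time test, and, whatever their result, Sqle, Srebf2, Insig1, Insig2, Abcg5, Abcg8, Abca1 and Scarb1. The rule also names Hmgcs1, which was not analysed here. Replicate numbers were not treated as pairs in the main fit. Alternatives changed the scaling, pseudocount, filter, test, replicate block and libraries.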

Additional observations from a re-analysis of the deposited data

Results flagged for a closer look

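The rise of Insig2 with ethanol at 6pm differed between genotype labels, with a knockout-label minus wild-type difference of -2.47 on the log2 scale (SE 0.61, adjusted p = 0.0213, limma). It stands here because the difference itself was tested. It was the 1 gene of 30 that passed, a share near the 2.99% of all genes, and leaving out any 1 of 3 livers ended the call.

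In wild type, the ethanol effect differed among the 4 times for 9 genes by limma's joint test: Insig2 (adjusted p = 1.95e-06), Fdps (adjusted p = 0.0179), Fdft1 (adjusted p = 0.0272), Insig1 (adjusted p = 0.0275), Soat2 (adjusted p = 0.0279), Acat2 (adjusted p = 0.0285), Mvk (adjusted p = 0.03), Hsd17b7 (adjusted p = 0.0361) and Ebp (adjusted p = 0.0376). Of these, Insig2 and Soat2 were highest relative to controls at 6pm, and the other 7 were lowest there. Under the knockout label the effect differed among times for Scarb1 (adjusted p = 0.0283) and Insig2 (adjusted p = 0.0294).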

How the results depend on the processing

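Over 55 called changes of single genes, 3122 values under alternatives gave 2967 on the same side of the threshold, 155 that no longer passed and 0 of opposite sign. Of the 55, 25 were lost in at least 1 fit that left out a library and 17 under at least 1 other alternative. The cause was not tested.

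Counts of the 30 genes called moved by over 1.5 times under these settings. With library totals as the only scaling, 12 genes were called for ethanol under the knockout label (6 before), 1 for the ethanol difference (0), 2 for time of day in knockout-label controls (1), 3 for time dependence in wild type (9), 1 at noon in wild type (2), and under the knockout label 2 at 6pm (0), 3 at 6am (0) and 4 at noon (1), and 3 for the 6pm difference (1). That scaling moves the median of all genes by -0.20 for ethanol under the knockout label, where 7.4% of all calls were then higher in place of 53.1%. The share moved from 47.6% to 83.6% between labels in controls, from 44.4% to 20.2% between labels in ethanol livers and from 52.9% to 74.1% at 6pm in wild type. With only the libraries of 1 label, 4 genes were called for time of day in wild-type controls (2), 5 in knockout-label ethanol (8), 1 for time dependence under the knockout label (2), 5 at midnight in wild type (3) and 0 at midnight under the knockout label (2). At 6pm under the knockout label a pseudocount of 0.1 and voom each called 1 gene (0). Without the 2 knockout-label livers with the highest acute phase sums, an alternative chosen after seeing the data, 1 gene was called for the ethanol difference and 2 at noon under the knockout label. Median-of-ratios factors changed no count.

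Leaving out 1 library gave counts of 8 to 10 for ethanol in wild type and 4 to 10 under the knockout label, 4 to 6 and 3 to 6 between labels in controls and ethanol livers, and 0 to 0 for the difference. Time of day gave 1 to 3 (wild-type controls), 16 to 25 (wild-type ethanol), 0 to 3 (knockout-label controls) and 4 to 14 (knockout-label ethanol), and time dependence 2 to 19 and 1 to 4. At single times wild type gave 9 to 21 (6pm), 0 to 5 (midnight), 0 to 4 (6am) and 0 to 3 (noon), the knockout label 0 to 2, 1 to 9, 0 to 3 and 1 to 3, and the 6pm difference 0 to 5. The replicate block changed the wild-type ethanol count from 8 to 9 and no other count of the 30, although at 6pm in wild type it ended the call of Sqle. Same-numbered deviations had median correlations of -0.009 to 0.003 over 120 pairs per number, with single pairs from -0.567 to 0.46. A median over all pairs cannot show whether numbers pair mice in only some groups, so pairing was not settled. The planned edgeR test was not run, and voom on recovered reads, chosen after seeing the data, took its place.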

Other observations

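Between the genotype labels in control livers, 5 of 19 other sterol-handling genes were higher under the knockout label and none was lower (limma, adjusted p below 0.05), where 32.4% of all genes differed. Abcg1, a cholesterol exporter of macrophages and other cells, was higher by 0.71 on the log2 scale (SE 0.14, adjusted p = 0.000235). Soat1, the acyltransferase, was higher by 0.60 (SE 0.10, adjusted p = 3.36e-05), and the lipoprotein receptor Lrp1 by 0.46 (SE 0.08, adjusted p = 6.64e-05). The summed level of 5 Kupffer cell markers was 164 to 579 scaled FPKM in these knockout-label controls and 71.8 to 261 in wild type, and its part in the differences of Abcg1, Soat1 and Lrp1 was not tested.

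Of 11 isoprenoid-using genes, 3 were lower in knockout-label controls and none was higher, a share below the 32.4% of all genes that differed, with a list median of -0.03 beside -0.01 for all genes. They encode protein prenylation subunits: Rabggtb (-0.31), Fnta (-0.22) and Rabggta (-0.19), on the log2 scale. For the difference between labels in the ethanol effect, Lcat was called among the 19 sterol-handling genes, at 0.37 (adjusted p = 0.0467).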
